A study of Mus musculus with 28 samples.

Results

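Cytochrome P450 enzymes of the Cyp2 and Cyp3 families were measured at the RNA level in mouse liver. The genes described are those whose symbol is Cyp2 with a subfamily letter and number or Cyp3a with a number, without named pseudogenes, and whose mean over all 28 libraries was at least 1 CPM, a gene's count scaled to the total gene counts of its library. Of 59 symbols with such a name, 2 were pseudogenes, and 33 of the remaining 57 reached that level. These 33 genes stand among 11641 genes at 1 CPM or more and 23393 gene symbols in all. They comprise 29 Cyp2 and 4 Cyp3a genes of 10 subfamilies, with 10 genes in Cyp2c, 7 in Cyp2d, 4 in Cyp2a, 4 in Cyp3a, 3 in Cyp2j and 1 each in Cyp2b, Cyp2e, Cyp2f, Cyp2r and Cyp2u. The member with the lowest mean was Cyp2b10 with 4.11 CPM. Just below the threshold were Cyp2c69 with 0.786 CPM and Cyp2c55 with 0.715 CPM. Cyp2d12, with a mean of 5.09 CPM, reached the threshold only through 1 library, as described below.

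Livers came from 129svj mice aged 11 to 13 months, either wild type (WT) or SIRT6 heterozygote (HZ). Sirt6 encodes a nuclear NAD-dependent deacylase. The animals were gavaged with 0.5% carboxymethylcellulose alone (vehicle) or with WY-14643 (WY) in it at 50 mg/kg, and were killed after 12 h. The compound activates PPARα, a nuclear receptor that drives hepatic fatty acid oxidation. Each of the 4 groups, WT vehicle, HZ vehicle, WT WY and HZ WY, held 7 animals with 1 library each. The labels do not say in which cells the Sirt6 allele was altered or how many litters were used. They give no sex either: Xist was between 0.100 and 0.895 CPM and the Y-linked Ddx3y between 88.2 and 154 CPM in every library. All WY animals bear numbers from 2 to 25 and all vehicle animals numbers from 29 to 39 or from 71 to 78, so that anything that differed between these sets of animals cannot be told apart from the treatment. The p-values below measure the spread between animals.

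The libraries held 15795201 to 20020078 gene counts each. Sirt6 lay between 1.82 and 3.67 CPM in WT vehicle and between 0.890 and 1.41 CPM in HZ vehicle, without overlap (log2 fold change -0.97 ± 0.17 SE, adjusted p = 0.00696). Under WY it was lower in HZ as well (-1.04 ± 0.16, adjusted p = 0.00721), but the groups overlapped, with WT from 2.26 to 4.31 CPM and HZ from 1.29 to 2.35 CPM. The PPARα target Cyp4a10, a fatty acid hydroxylase of another P450 family, rose with WY by 0.90 ± 0.25 in WT and by 1.60 ± 0.25 in HZ on the log2 scale, here and below with the standard error of edgeR's fit. On the second principal component of all genes tested, which held 9.77% of the variance, 5 HZ libraries stood apart, those of vehicle animals 30 and 38 and of WY animals 14, 15 and 21. Results that rest on them are given with and without them below.

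P450 enzymes sit in the membrane of the endoplasmic reticulum and insert 1 oxygen atom of O2 into their substrates, with electrons delivered by NADPH-cytochrome P450 reductase (Por). In hepatocytes, Cyp2 and Cyp3 enzymes oxidise drugs, steroids, bile acids, retinoids and fatty acids, and many of them are most abundant around the central vein. Their genes lie in clusters of close paralogs, and several respond to the xenobiotic receptors CAR (Nr1i3) and PXR (Nr1i2) and to liver factors such as HNF4α.

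Promoter sequence of RefSeq was available for 27 of the 33 genes, as windows of 300 bases from 250 before to 50 after the start site. The 150 bases before the start site are shown for 7 genes in which 1 of the motifs below was found there, and for Cyp2a22, the gene that rose with WY. They are printed 5′ to 3′ in the direction of transcription, from build GRCm38.p6. The first 4 genes lie on chromosome 7, and capitals mark the D-box type octamer TTATGCAA on either strand, a sequence of the kind bound by the proline and acidic amino acid-rich leucine zipper factors Dbp, Tef and Hlf. The windows are chr7:25897508-25897657 (+) for Cyp2b10, chr7:26835189-26835338 (+) for Cyp2a5, chr7:26307042-26307191 (+) for Cyp2a4 and chr7:26939387-26939536 (-) for Cyp2a22.
Cyp2b10: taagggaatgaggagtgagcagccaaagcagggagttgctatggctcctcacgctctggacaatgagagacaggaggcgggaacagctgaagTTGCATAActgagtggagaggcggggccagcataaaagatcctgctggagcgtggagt
Cyp2a5: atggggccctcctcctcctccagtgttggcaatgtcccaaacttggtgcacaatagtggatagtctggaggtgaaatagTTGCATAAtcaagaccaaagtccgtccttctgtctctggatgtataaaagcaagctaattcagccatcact
Cyp2a4: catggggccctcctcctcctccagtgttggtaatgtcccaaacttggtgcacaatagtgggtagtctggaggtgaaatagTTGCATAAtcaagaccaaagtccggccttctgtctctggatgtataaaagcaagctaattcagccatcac
Cyp2a22: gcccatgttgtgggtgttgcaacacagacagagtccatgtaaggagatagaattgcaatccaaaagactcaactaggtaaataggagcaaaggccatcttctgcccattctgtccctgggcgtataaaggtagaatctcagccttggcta
The octamer began at position -58 from the start site in Cyp2b10, at -71 in Cyp2a5 and at -70 in Cyp2a4, each time as TTGCATAA. It was found in 3 of the 27 genes with a promoter, and in 0.888% of all 27025 genes with one. The windows of Cyp2a5 and Cyp2a4 are nearly the same sequence, so these hits are not independent. The window of Cyp2a22 held no copy. The related octamers TTACGTAA and TTATGTAA were found in 0 of the 27, against 0.126% and 1.11% of all genes.

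In the next 4 promoters capitals mark TGNACTTTG on either strand, a core of the kind bound by HNF4α. They are chr19:40187287-40187436 (-) for Cyp2c70, chr19:39741102-39741251 (-) for Cyp2c68, chr19:39649043-39649192 (-) for Cyp2c67 and chr5:145879855-145880004 (-) for Cyp3a11.
Cyp2c70: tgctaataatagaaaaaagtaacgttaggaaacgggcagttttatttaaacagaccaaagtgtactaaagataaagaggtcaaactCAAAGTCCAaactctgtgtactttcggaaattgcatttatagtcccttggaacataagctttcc
Cyp2c68: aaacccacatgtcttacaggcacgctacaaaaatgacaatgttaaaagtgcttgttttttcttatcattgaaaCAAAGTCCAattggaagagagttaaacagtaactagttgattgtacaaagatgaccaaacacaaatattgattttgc
Cyp2c67: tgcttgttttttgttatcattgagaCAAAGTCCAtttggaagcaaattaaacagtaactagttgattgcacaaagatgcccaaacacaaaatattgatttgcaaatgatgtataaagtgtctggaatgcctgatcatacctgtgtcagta
Cyp3a11: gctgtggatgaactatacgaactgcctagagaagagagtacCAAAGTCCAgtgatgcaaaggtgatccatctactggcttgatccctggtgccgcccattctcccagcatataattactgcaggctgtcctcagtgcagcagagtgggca
The motif began at -64 in Cyp2c70, -77 in Cyp2c68, -125 in Cyp2c67 and -109 in Cyp3a11, and was CAAAGTCCA in all 4. Within the 300 bases it occurred in 7 of the 27 genes (Cyp2c37, Cyp2c50, Cyp2c67, Cyp2c68, Cyp2c70, Cyp2d26 and Cyp3a11), against 1.64% of all genes. The TATA box TATAAA occurred in 16 of the 27 against 15.7% of all genes, and the forkhead core TGTTTAC in 4 of the 27 (Cyp2c38, Cyp2c39, Cyp2j5 and Cyp3a11) against 4.05%. Direct repeats of AGGTCA spaced by 1 or by 4 bases, forms used by nuclear receptors with RXR, were found in 0 of the 27 and in 0.0481% and 0.0148% of all genes. These motifs were searched on both strands, were chosen with the expression values known, and mark letters in a window, not bound sites. Close paralogs such as Cyp2c67 and Cyp2c68 share much of their promoter sequence, so the counts of genes with a motif are not independent hits.

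Among vehicle animals the 33 genes together made up 2.06 ± 0.18% of gene counts in WT and 2.20 ± 0.21% in HZ. After WY they made up 1.49 ± 0.064% in WT and 1.39 ± 0.11% in HZ (SD, n = 7 a group). The lowest vehicle library, 1.67% in WT, was above the highest WY library, 1.62% in WT. Cyp2e1, which oxidises ethanol and other small molecules, alone held 30.7 to 45.4% of the counts of the 33 genes (median 39.4%). Without Cyp2e1 the other 32 genes took 1.16 to 1.35% of gene counts in WT vehicle and 0.833 to 0.943% in WT WY, and in HZ 1.02 to 1.55% and 0.743 to 0.986%. These ranges did not overlap between treatments in either genotype.

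Per kilobase of exon, Cyp2e1 stood first in all 4 groups, with a median of 3812 CPM per kilobase in WT vehicle and 2465 in HZ WY. Cyp2f2, which activates naphthalene, had 666 and 497 CPM per kilobase in these groups. By median it came next after Cyp2e1 in WT vehicle and in WT WY. In HZ vehicle its median of 574 lay below the 578 of Cyp2c29, with ranges that overlap. In HZ WY its median of 497 lay below the 505 of Cyp2j5, again with overlap. Cyp2c29, an epoxygenase, and Cyp2j5, which acts on arachidonic acid, had medians of 587 and 580 CPM per kilobase in WT vehicle, with ranges of 434 to 710 and 502 to 642 that overlap each other and that of Cyp2f2, 591 to 724. In WT WY, Cyp2j5 at 464 to 546 lay above Cyp2c29 at 271 to 377, without overlap. At the other end, Cyp2d12, Cyp2a22 and Cyp2b10 had means below 2 CPM per kilobase over the 28 libraries.

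**Figure D1:**
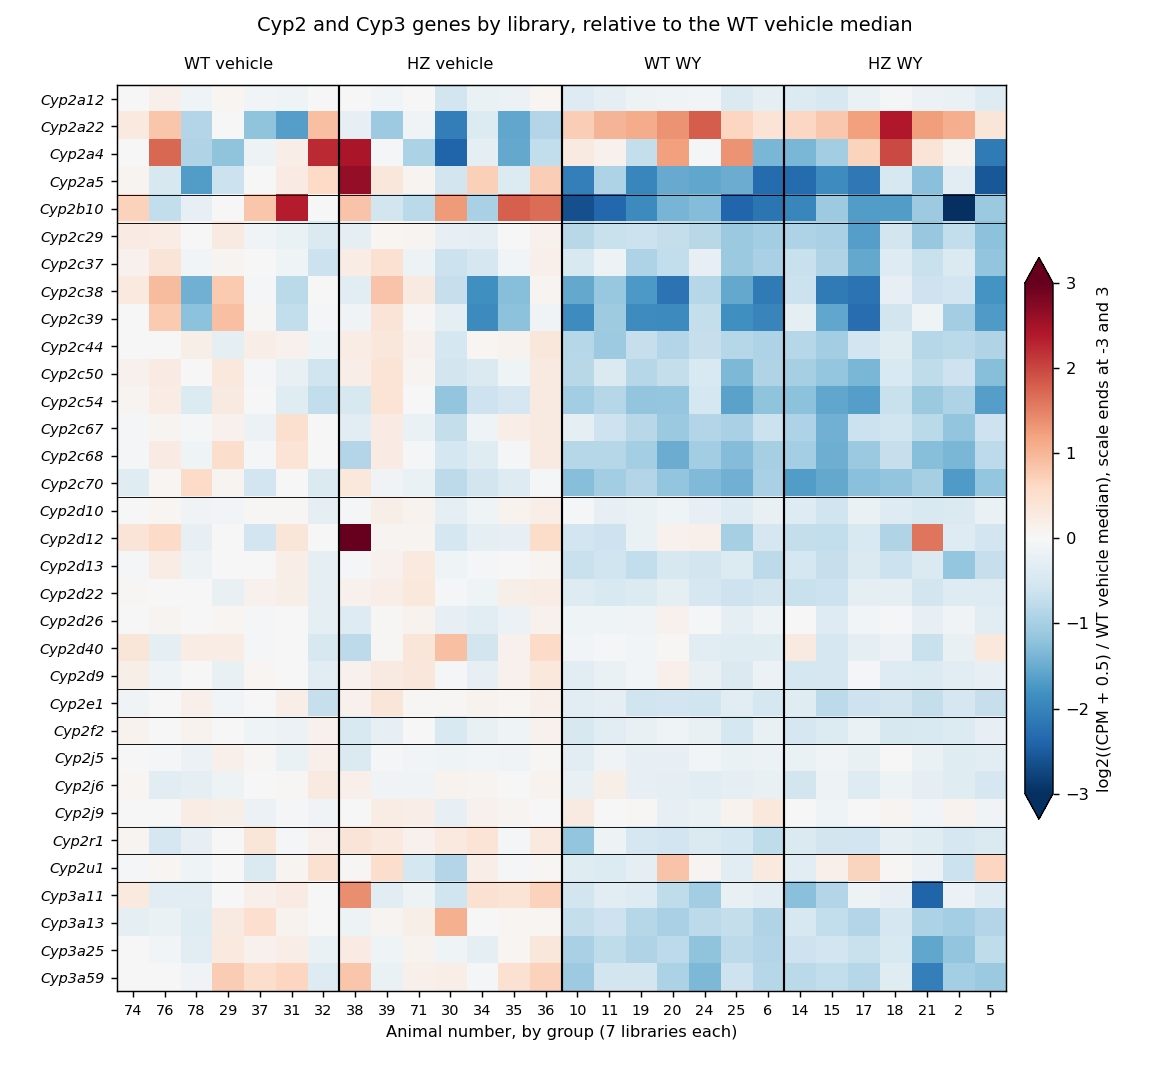
Heat map of the 33 Cyp2 and Cyp3 genes (rows, by subfamily) in 28 libraries (columns, animal numbers within group), coloured by log2 of CPM plus 0.5 over the WT vehicle median of the gene. Most rows turn blue in the 14 WY libraries, Cyp2a22 turns red there, and single dark cells mark animals such as HZ vehicle animal 38 for Cyp2d12 and Cyp2a5.

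WY lowered most of these P450 genes in both genotypes and raised 1. In WT, 23 of the 33 genes fell and 1 rose at a Benjamini-Hochberg adjusted p below 0.05 in edgeR's quasi-likelihood test over 12607 genes, against 26.7% of all genes lower, 27.4% higher and 54.1% in either direction. In HZ, 23 fell and 1 rose, against 26.4% and 29.3% of all genes and 55.7% in either direction. Of the HZ falls, that of Cyp2d12 rested on the 1 library through which it became a member. The median log2 fold change of the 33 was -0.62 in WT and -0.75 in HZ, and over all genes tested it was -0.017 and 0.011. Of the 33, 11 in WT and 11 in HZ had every WY library below every vehicle library, against 11.0% and 8.39% of all genes, and 1 in HZ had every WY library above, against 14.1%. All 33 had passed the filter on low counts in the whole data set. The share of reads that fell in no annotated feature also separated the treatments, at 7.85 to 9.08% in the 14 vehicle libraries and 6.36 to 7.83% in the 14 WY libraries, and its part in the result was not tested. In bulk liver, fewer cells of a type and less RNA per cell cannot be told apart.

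In both genotypes 19 genes fell, 82.6% of those lower in WT and 82.6% of those lower in HZ. Over all genes tested these shares were 78.7% and 79.5%, near those of the members. The gene that rose was Cyp2a22 in both. In WT alone the test was passed by Cyp2j5, Cyp2a12, Cyp2c39 and Cyp2c38, and in HZ alone by Cyp3a11, Cyp2d9, Cyp2j6 and Cyp2d12. For these 8 genes the test of the difference between genotypes gave adjusted p from 0.451 to 0.843, so a difference in response was not shown for any of them. Cyp2d26, Cyp2d40, Cyp2u1, Cyp2j9 and Cyp2a4 passed in neither genotype. The counts of falls without the 5 HZ libraries that stood apart were 24 in WT and 23 in HZ.

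**Figure D2:**
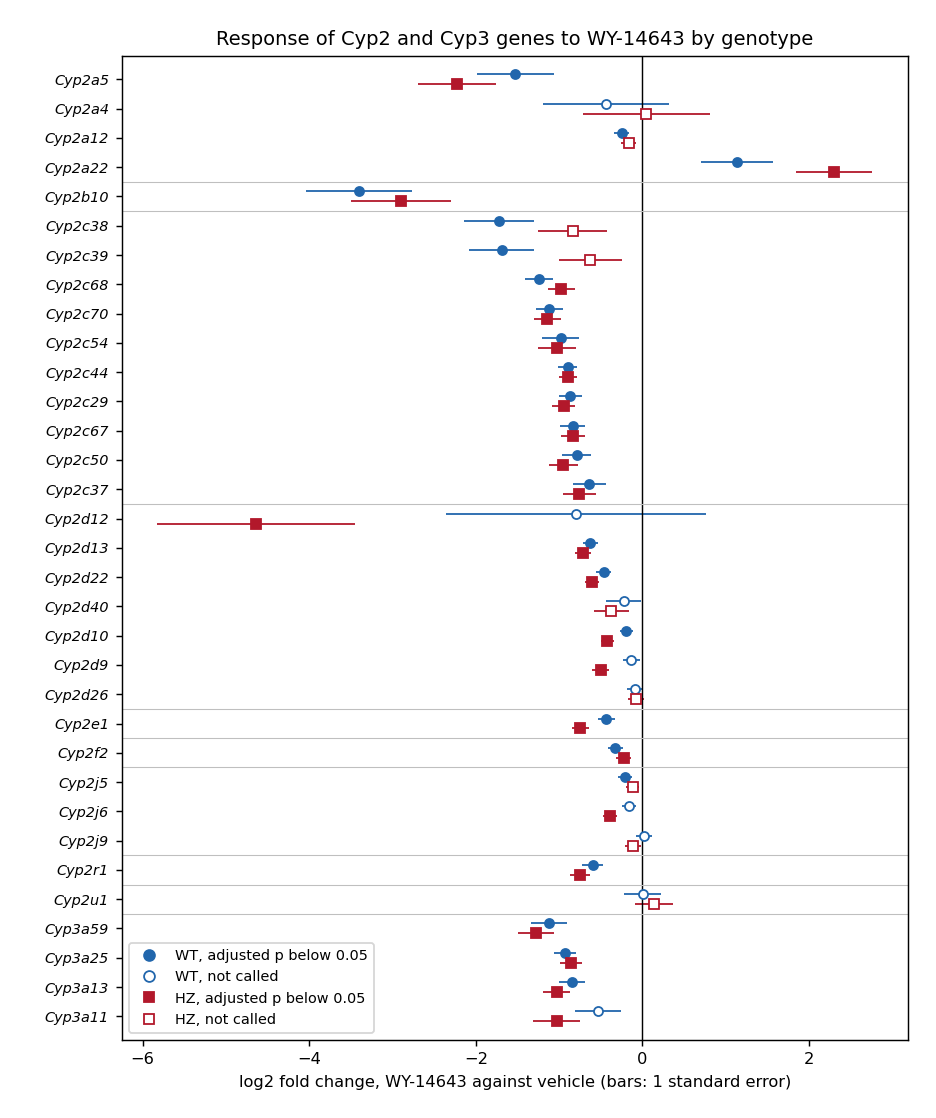
Log2 fold change of WY against vehicle for the 33 genes, in WT (circles) and HZ (squares), with bars of 1 standard error, grouped by subfamily. All Cyp2c, Cyp3a, Cyp2d and Cyp2f points lie left of 0, with Cyp2d medians of -0.23 in WT and -0.50 in HZ. Cyp2j points lie between -0.39 and 0.018. Cyp2a22 stands at 1.13 and 2.30, and Cyp2d12 in HZ at -4.64.

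Cyp2b10 (chromosome 7, 25897620 to 25926624), the classical target of CAR, fell most in WT. Its vehicle libraries ran from 2.19 to 22.5 CPM in WT (median 3.97) and from 1.78 to 15.0 CPM in HZ (median 7.62). With WY they ran from 0.218 to 1.32 CPM in WT (median 0.487) and from 0 to 1.61 CPM in HZ (median 0.903). Every WY library lay below every vehicle library of its genotype, although vehicle animals of both genotypes differed widely from each other. Means in WT and HZ were 7.14 and 7.59 CPM with vehicle and 0.662 and 1.03 CPM with WY. Membership of Cyp2b10 thus rested on the vehicle libraries, and its fall is not independent of the rule for members. The log2 fold change was -3.40 ± 0.64 in WT (adjusted p = 7.32e-05) and -2.90 ± 0.60 in HZ (adjusted p = 0.000196), about 10.6-fold and 7.46-fold. Without WT vehicle animal 31 the WT value was -2.81 (adjusted p = 0.000236), and with the Dbp, Tef and Hlf covariate described below the HZ value was -1.74 (adjusted p = 0.0453).

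The Cyp2a genes moved in different directions. Cyp2a5 (chromosome 7, 26835305 to 26843548), which hydroxylates coumarin, ran from 41.0 to 201 CPM in WT vehicle (median 132) and from 26.2 to 68.9 CPM in WT WY (median 45.0). In HZ it ran from 90.8 to 822 CPM with vehicle (median 169) and from 22.5 to 106 CPM with WY (median 35.7). The groups overlapped in both genotypes. Cyp2a5 fell by 1.53 ± 0.46 in WT (adjusted p = 0.00664) and by 2.22 ± 0.46 in HZ (adjusted p = 0.00024) on the log2 scale, the latter with HZ vehicle animal 38 at 822 CPM. Without animal 38 the HZ value was -1.58 (adjusted p = 0.00106), and without the 5 HZ libraries it was -1.43 (adjusted p = 0.0145).

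Cyp2a22 (chromosome 7, 26931631 to 26939384), a little studied relative in the same gene cluster, went the other way. It ran from 0.631 to 6.17 CPM in WT vehicle (median 3.08) and from 4.26 to 12.0 CPM in WT WY (median 6.78). In HZ it ran from 0.356 to 2.85 CPM with vehicle (median 1.44) and from 4.08 to 18.4 CPM with WY (median 7.07). The HZ groups did not overlap and the WT groups did. Cyp2a22 rose by 1.13 ± 0.43 in WT (adjusted p = 0.0279) and by 2.30 ± 0.46 in HZ (adjusted p = 0.000128). The WT call was lost without any one of WT vehicle animals 31, 37 or 78 or WT WY animal 24, with adjusted p up to 0.072. The log2 fold change was 0.95 to 1.01 in those cases, and 0.95 to 1.37 over all single libraries left out. The interaction was 1.17 ± 0.62 (adjusted p = 0.565).

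Of the other Cyp2a genes, Cyp2a12, a steroid hydroxylase, fell by 0.25 ± 0.087 in WT (adjusted p = 0.0168), from a median of 548 to 457 CPM, and had -0.17 ± 0.087 in HZ (adjusted p = 0.109). The HZ value passed without HZ vehicle animal 30 (adjusted p = 0.0198) or HZ WY animal 18 (adjusted p = 0.0384). Cyp2a4, a testosterone hydroxylase, had the widest spread between animals of a group among the 33, by the SD of log2 CPM averaged over the 4 groups, although in HZ vehicle Cyp2d12 was wider (2.77 against 1.70). It ran from 1.68 to 23.3 CPM in WT vehicle and from 0.457 to 27.1 CPM in HZ vehicle, and had WY log2 fold changes of -0.44 ± 0.75 and 0.046 ± 0.76. Cyp2a4 and Cyp2a5 are close copies: 36.1% of the 50-base windows of Cyp2a4 transcripts also occur in Cyp2a5, so reads placed between them are uncertain. For Cyp2a22, 20.2% of windows are shared with Cyp2a12.

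**Figure D3:**
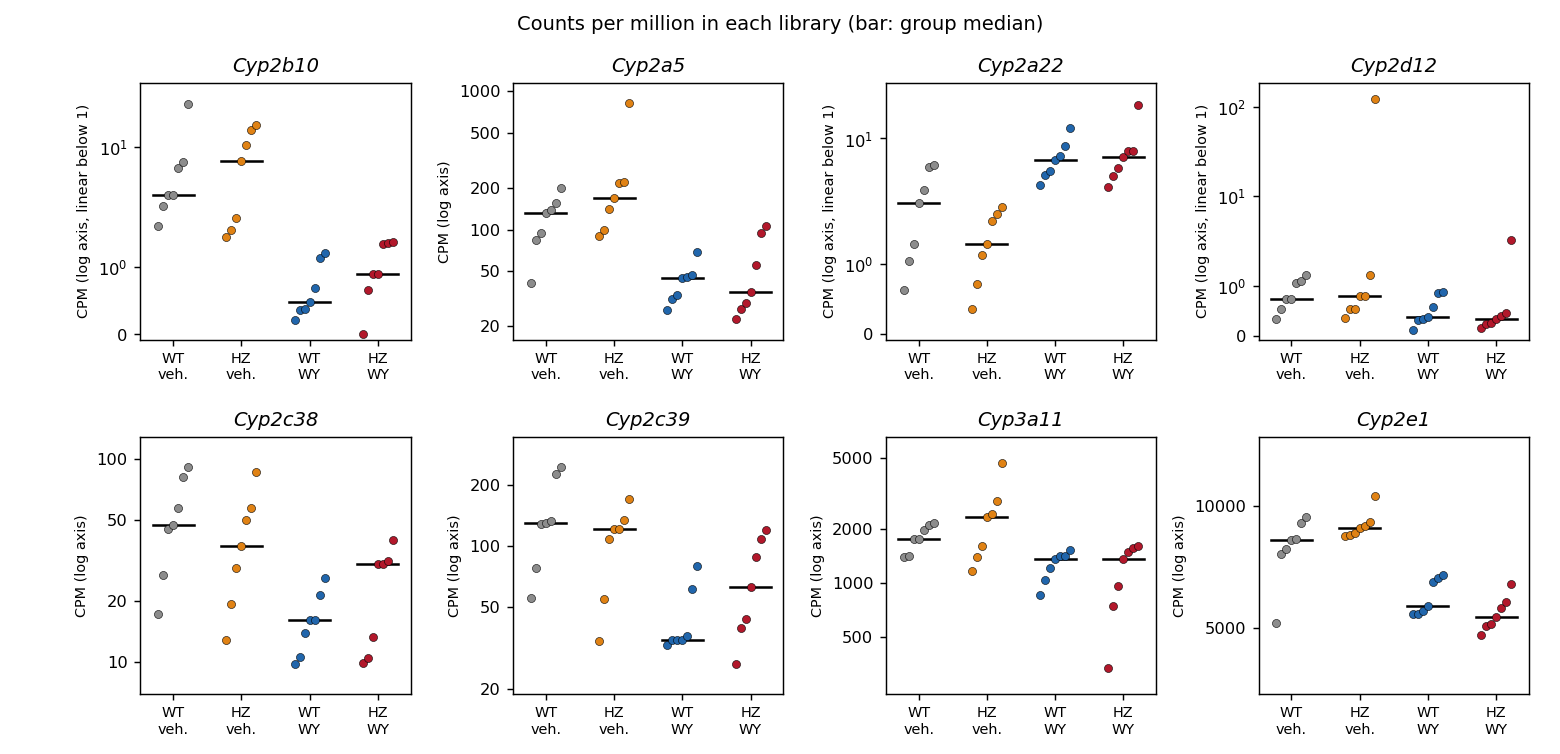
CPM of 8 P450 genes in each of the 7 libraries of the 4 groups, on log axes that turn linear below 1 CPM where values are that low. Bars are group medians. Cyp2b10 separates vehicle from WY in both genotypes and Cyp2e1 in HZ only, Cyp2a22 is higher with WY, and Cyp2d12 stays near 1 CPM or below apart from 123.7 CPM in HZ vehicle animal 38 and 3.28 CPM in HZ WY animal 21.

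The Cyp2c subfamily fell as a whole. These 10 genes of chromosome 19 include epoxygenases of arachidonic acid, and Cyp2c70 makes muricholic bile acids in mice. Their summed level ran from 3205 to 4855 CPM in WT vehicle (median 4269) and from 1799 to 2471 CPM in WT WY (median 2268). In HZ the sum ran from 2959 to 4662 CPM with vehicle (median 3850) and from 1634 to 2693 CPM with WY (median 2052). In both genotypes every WY library lay below every vehicle library. In WT all 10 genes fell, with log2 fold changes from -1.72 to -0.64, and in HZ 8 of the 10 fell.

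Cyp2c29, the most abundant of them, ran from 1329 to 2174 CPM in WT vehicle (median 1795) and from 829 to 1154 CPM in WT WY (median 1011). In HZ it ran from 1462 to 1951 CPM (median 1769) and from 567 to 1225 CPM (median 915). Neither pair of groups overlapped, and Cyp2c29 fell by 0.87 ± 0.14 in WT (adjusted p = 7.2e-06) and by 0.95 ± 0.14 in HZ (adjusted p = 1.82e-06). Cyp2c70 ran from 408 to 901 CPM in WT vehicle and from 224 to 331 CPM in WT WY, and in HZ from 352 to 762 and from 187 to 305 CPM. It too fell without overlap, by 1.12 ± 0.16 and 1.14 ± 0.16.

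Cyp2c38 and Cyp2c39, neighbours on chromosome 19 of which Cyp2c39 hydroxylates retinoic acid, had the largest Cyp2c falls in WT. Cyp2c38 ran from 17.1 to 91.7 CPM in WT vehicle (median 47.2) and from 9.74 to 25.8 CPM in WT WY (median 16.0). Cyp2c39 ran from 55.3 to 244 CPM and from 32.6 to 79.4 CPM, with medians of 130 and 34.8. The groups overlapped for both genes, which fell by 1.72 ± 0.43 (adjusted p = 0.00138) and 1.69 ± 0.39 (adjusted p = 0.000685). In HZ they had -0.83 ± 0.41 (adjusted p = 0.0908) and -0.63 ± 0.38 (adjusted p = 0.165). Without HZ vehicle animal 34 or HZ WY animal 18, Cyp2c38 passed in HZ as well, with adjusted p down to 0.0402. The interactions were 0.89 ± 0.59 and 1.06 ± 0.54 (adjusted p = 0.655 and 0.541). The same animal held the lowest value of both genes in 3 of the 4 groups: WT vehicle animal 78, HZ vehicle animal 34 and HZ WY animal 17.

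Cyp2c68 fell by 1.25 ± 0.17 in WT, from a median of 87.4 to 42.9 CPM without overlap, and by 0.97 ± 0.17 in HZ, where the groups overlapped. Cyp2c54 fell by 0.98 ± 0.23 in WT, from a median of 261 to 116 CPM, and by 1.02 ± 0.23 in HZ, from 188 to 111 CPM, with overlap in both. The other 4 Cyp2c genes, Cyp2c37, Cyp2c44, Cyp2c50 and Cyp2c67, had log2 fold changes between -0.64 and -0.90 in WT and between -0.76 and -0.95 in HZ, and all passed. Reads of Cyp2c67 and Cyp2c68 are the least certain of the set: 47.2% and 56.7% of their 50-base windows occur in no other gene. The sequence they share most is that of Cyp2c40, which was at 0 to 0.656 CPM. Next for Cyp2c68 is the member Cyp2c67, which had a mean of 324 CPM over the 28 libraries.

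**Figure D4:**
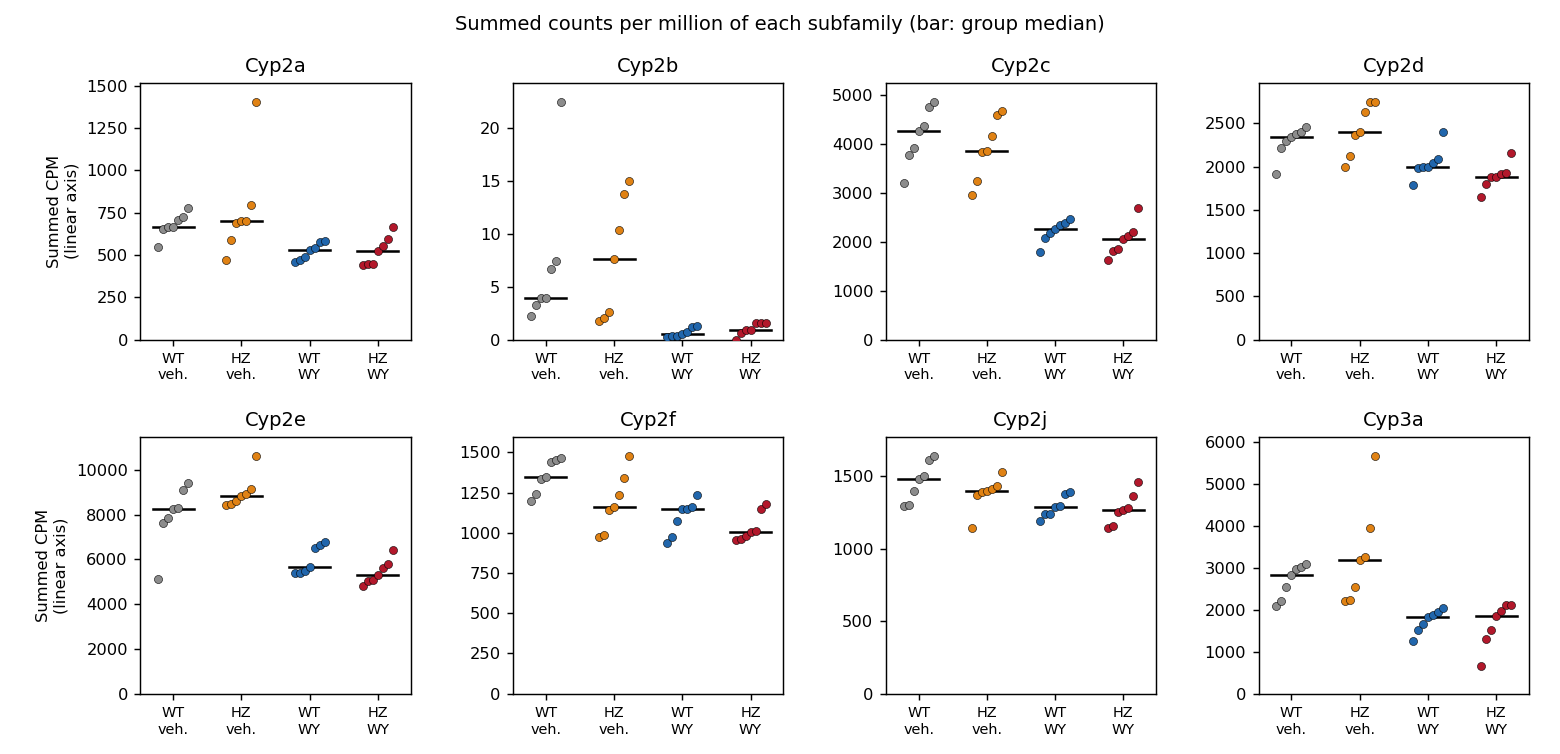
Summed CPM of 8 Cyp2 and Cyp3 subfamilies in each library by group, on linear axes from 0, with bars at the group medians. Cyp2b, Cyp2c and Cyp3a have every WY library below every vehicle library of the same genotype, Cyp2e has this in HZ only, and Cyp2a, Cyp2d, Cyp2f and Cyp2j overlap.

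The Cyp3a genes on chromosome 5, whose enzymes oxidise steroids, bile acids and a wide range of drugs, fell as a group. Their sum ran from 2083 to 3088 CPM in WT vehicle and from 1260 to 2030 CPM in WT WY, and in HZ from 2212 to 5654 and from 659.5 to 2121 CPM, without overlap in either genotype. Cyp3a11 (145854426 to 145879964), the main hepatic enzyme and a PXR target, ran from 1400 to 2165 CPM in WT vehicle (median 1776) and from 864 to 1528 CPM in WT WY (median 1360). In HZ it ran from 1172 to 4679 CPM with vehicle (median 2355) and from 338 to 1608 CPM with WY (median 1360). The groups overlapped in both genotypes.

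Cyp3a11 had -0.53 ± 0.28 in WT (adjusted p = 0.108) and fell by 1.03 ± 0.28 in HZ (adjusted p = 0.00282), with an interaction of -0.50 ± 0.39 (adjusted p = 0.709). The WT value passed when only the WT libraries were fitted (-0.54, adjusted p = 0.00209) and when the 5 HZ libraries were left out of the fit (-0.53, adjusted p = 0.0035). Both extremes of Cyp3a11 in HZ, 4679 CPM in vehicle animal 38 and 338 CPM in WY animal 21, belong to those 5 libraries. Leaving out single libraries gave -0.80 to -1.14 in HZ, and the call held each time. Without all 5 libraries it was -0.51 (adjusted p = 0.0227).

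The other 3 Cyp3a genes fell in both genotypes without overlap. Cyp3a13 went from 171 to 310 CPM with vehicle to 112 to 142 CPM with WY in WT, and from 198 to 460 CPM to 107 to 156 CPM in HZ, with log2 fold changes of -0.85 ± 0.16 and -1.03 ± 0.16. Cyp3a59 fell by 1.12 ± 0.22 in WT, from a median of 50.0 to 27.4 CPM (adjusted p = 9.4e-05), and by 1.28 ± 0.22 in HZ, from a median of 57.7 to 27.4 CPM. Cyp3a25 fell by 0.93 ± 0.13 and 0.86 ± 0.13. Cyp3a25 and Cyp3a59 share sequence, with 73.2% and 70.0% of windows occurring in no other gene.

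The Cyp2d genes are relatives of human debrisoquine hydroxylase. Their sum had medians of 2346 CPM in WT vehicle, 2400 CPM in HZ vehicle, 2002 CPM in WT WY and 1882 CPM in HZ WY, with overlap. In WT 3 of the 7 fell and in HZ 5, among them Cyp2d12, which rested on 1 animal. Cyp2d26, the most abundant per kilobase, ran from 590 to 753 CPM in WT vehicle and from 583 to 783 CPM in WT WY, and had -0.095 ± 0.092 (adjusted p = 0.397). In HZ it had -0.077 ± 0.092 (adjusted p = 0.501). Cyp2d22 and Cyp2d13 fell without overlap in both genotypes, Cyp2d22 by 0.47 ± 0.085 and 0.61 ± 0.085 and Cyp2d13 by 0.62 ± 0.094 and 0.71 ± 0.094. RefSeq lists Cyp2d13 as a transcribed pseudogene on chromosome 15 (82636750 to 82642045).

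Cyp2d12 (chromosome 15, 82555072 to 82560403) rested on 1 animal. In HZ vehicle it was at 123.7 CPM in animal 38 and between 0.356 and 1.32 CPM in the other 6. Its means were 0.842 CPM in WT vehicle, 0.488 CPM in WT WY and 0.730 CPM in HZ WY. Cyp2d12 became a member only through animal 38, so its calls are not independent of the rule for members. In WT vehicle it ran from 0.332 to 1.34 CPM, in WT WY from 0.119 to 0.879 CPM, and in HZ WY from 0.159 to 3.28 CPM. Its fall with WY in HZ, -4.64 ± 1.19 (adjusted p = 0.00176), became -0.068 (adjusted p = 0.928) without animal 38 and -1.26 (adjusted p = 0.025) without the 5 HZ libraries. The call was also lost with limma voom (-1.46, adjusted p = 0.0978) and with the Dbp, Tef and Hlf covariate (-2.88, adjusted p = 0.255), and DESeq2 gave -1.08 (adjusted p = 0.0134). Without HZ WY animal 21 the value was -5.82.

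Of the single-gene subfamilies, Cyp2e1 (chromosome 7, 140763739 to 140774987) ran from 5124 to 9430 CPM in WT vehicle (median 8226) and from 5396 to 6751 CPM in WT WY (median 5670). In HZ it ran from 8430 to 10610 CPM with vehicle (median 8841) and from 4801 to 6428 CPM with WY (median 5319). The WT groups overlapped through 1 vehicle animal, number 32 at 5124 CPM, and the HZ groups did not. Cyp2e1 fell by 0.43 ± 0.10 in WT (adjusted p = 0.000576) and by 0.75 ± 0.10 in HZ (adjusted p = 3.94e-07).

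Cyp2f2 fell by 0.33 ± 0.092 in WT (adjusted p = 0.00327), from a median of 1349 to 1148 CPM. In HZ it fell by 0.22 ± 0.092 (adjusted p = 0.0379), from 1162 to 1007 CPM, a call lost without any one of HZ vehicle animals 35, 36 or 71 or HZ WY animals 2, 14, 15, 18 or 21, with adjusted p up to 0.127. Cyp2j5 fell by 0.21 ± 0.08 in WT (adjusted p = 0.027), from a median of 1360 to 1189 CPM, a call lost without any one of WT vehicle animals 29, 32 or 37 or WT WY animals 10 or 20, with adjusted p up to 0.0661. In HZ it had -0.12 ± 0.08 (adjusted p = 0.216), and passed without HZ vehicle animal 38 (adjusted p = 0.0373).

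Cyp2r1, a vitamin D 25-hydroxylase and not a drug oxidase in the usual sense, fell by 0.60 ± 0.12 in WT and by 0.75 ± 0.12 in HZ. It ran from 11.1 to 20.6 CPM in WT vehicle and from 6.76 to 14.2 CPM in WT WY, and in HZ from 15.6 to 21.3 and from 10.6 to 12.8 CPM, without overlap in HZ only. Cyp2u1, which hydroxylates long-chain fatty acids, ran from 16.7 to 31.5 CPM in WT vehicle and from 17.1 to 41.2 CPM in WT WY. Its log2 fold change was 0.0017 ± 0.22 in WT and 0.14 ± 0.22 in HZ, with adjusted p of 0.996 and 0.627.

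No difference between genotypes was shown for the 33 beyond 1 call that rested on 1 animal. Under vehicle 1 gene was higher and 0 lower in HZ than in WT, against 0.301% and 1.77% of all genes and 2.07% in either direction, and 4 had an unadjusted p below 0.05. In 0 of the 33 did the genotypes not overlap, against 0.0238% of all genes higher and 0.119% lower. The called gene was Cyp2d12 with 4.32 ± 1.16 (adjusted p = 0.0488), which was -0.23 (adjusted p = 0.908) without HZ vehicle animal 38. That is the animal through which Cyp2d12 became a member. The call was also lost without any one of WT vehicle animals 29, 32, 37, 74, 76 or 78 or HZ vehicle animal 35, and 0 members were called without the 5 HZ libraries or by DESeq2, which gave Cyp2d12 no adjusted p. The other 3 were Cyp2a5 with 0.99 ± 0.45, Cyp2a22 with -1.01 ± 0.48 and Cyp2f2 with -0.22 ± 0.091, with adjusted p of 0.238, 0.262 and 0.201. For Cyp2a5 the value was 0.35 in the lowest case of leaving out a library.

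Under WY, 0 of the 33 were called between genotypes by edgeR or DESeq2, against 1.42% of all genes higher, 1.74% lower and 3.16% in either direction, and 2 had an unadjusted p below 0.05. These were Cyp2d10 with -0.19 ± 0.078 and Cyp2j6 with -0.18 ± 0.085 (adjusted p = 0.13 and 0.202). The interaction of genotype and WY was called for 0 of the 33 by edgeR or DESeq2 and for 0.0% of all genes. Unadjusted p was below 0.05 for 3, Cyp2e1 with -0.31 ± 0.14, Cyp2d9 with -0.37 ± 0.14 and Cyp2d10 with -0.23 ± 0.11, and the smallest adjusted p was 0.451. Cyp2d9, Cyp2d10 and Cyp2j6 were singled out after their values were seen.

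By the median, levels within a group differed more between animals for these genes than for all genes tested, but not for every member. The SD of log2 CPM within groups, averaged over the 4 groups, had a median of 0.283 over the 33 and of 0.181 over all genes tested. It was widest for Cyp2a4 with 1.43, Cyp2d12 with 1.33 and Cyp2b10 with 1.13, whose means were only 6.56, 5.09 and 4.11 CPM. Abundant members such as Cyp2e1 with 0.179 and Cyp2j5 with 0.144 lay below the median of all genes. HZ vehicle animal 30, whose level of the acute phase gene Saa1 was 3417 CPM, held the lowest value of its group for 18 of the 33 genes and the highest for Cyp3a13 and Cyp2d40. HZ vehicle animal 38, with 418 CPM of the acute phase gene Lcn2, held the highest value for 7, among them Cyp3a11, Cyp2a5, Cyp2a4 and Cyp2d12, and the lowest for 6, among them Cyp2c29 and Cyp2j5. Its library was unusual, with 16606 genes detected, the most of the 28, whose median was 15296. The part of this in its values was not tested.

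HZ WY animal 21 held the lowest Cyp3a11, Cyp3a25 and Cyp3a59 and the highest Cyp2b10, Cyp2c39, Cyp2c70 and Cyp2d12 of its group. HZ WY animal 18 held the highest value for 17 genes. WT vehicle animal 32 held the lowest for 12 and WT WY animal 25 for 13.

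The reductase that feeds these enzymes moved the other way. Of 5 measured redox partners, Por rose with WY by 0.84 ± 0.14 in WT (adjusted p = 1.23e-05) and by 0.66 ± 0.14 in HZ (adjusted p = 0.000218). Por ran from 287 to 484 CPM in WT vehicle and from 570 to 883 CPM in WT WY, without overlap, and in HZ from 278 to 524 and from 415 to 739 CPM, with overlap. Pgrmc2, a haem-binding membrane protein, rose in HZ by 0.47 ± 0.11. The cytochrome b5 reductase Cyb5r3 and Pgrmc1 fell in HZ by 0.24 ± 0.08 and 0.23 ± 0.08. In WT, Pgrmc2, Cyb5r3 and Pgrmc1 had 0.11 ± 0.11, -0.14 ± 0.08 and -0.15 ± 0.08, and none passed. Their interactions had adjusted p of 0.49, 0.796 and 0.844, so a difference between genotypes was not shown. Of 8 genes of haem synthesis, which supplies the P450 prosthetic group, 5 rose and 1 fell in each genotype. For these lists and those below, the shares over all genes tested were 27.4% higher and 26.7% lower in WT. In HZ they were 29.3% and 26.4%. Alad rose by 0.76 ± 0.083 in WT and 0.74 ± 0.083 in HZ, and Fech, which inserts the iron, fell by 0.33 ± 0.061 and 0.48 ± 0.061.

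Among 22 measured regulators of P450 genes, 2 rose and 10 fell in WT and 2 rose and 9 fell in HZ. The median log2 fold change was -0.21 in WT and -0.11 in HZ. CAR (Nr1i3) had 0.21 ± 0.13 and 0.15 ± 0.13 (adjusted p = 0.177 and 0.344), PXR (Nr1i2) 0.059 ± 0.084 and -0.11 ± 0.084 (adjusted p = 0.578 and 0.268), and Hnf4a -0.081 ± 0.071 and -0.066 ± 0.071 (adjusted p = 0.344 and 0.444). CAR ran from 103 to 181 CPM in WT vehicle and from 141 to 201 CPM in WT WY. The coactivator Ppargc1a fell by 2.01 ± 0.27 and 2.17 ± 0.26, the aryl hydrocarbon receptor Ahr by 0.94 ± 0.12 and 1.17 ± 0.12, the glucocorticoid receptor Nr3c1 by 0.47 ± 0.062 and 0.52 ± 0.062, and Rora, an orphan receptor of the hepatic clock, by 0.74 ± 0.093 and 0.27 ± 0.092. Rora, Stat5b and Arnt were higher in HZ than in WT under WY, and Ppara was lower in HZ under vehicle.

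Of 13 other genes that CAR, PXR or oxidant stress is known to raise, 1 rose and 5 fell in WT and 2 rose and 6 fell in HZ. The organic anion carrier Slco1a4 fell by 2.65 ± 0.32 and 2.98 ± 0.32, and the sulfotransferase Sult1d1 by 1.26 ± 0.18 and 1.52 ± 0.18. Epoxide hydrolase Ephx1 rose by 0.45 ± 0.093 and 0.61 ± 0.093. Other P450 families were mixed: of 21 genes, 3 rose and 6 fell in WT and 3 rose and 8 fell in HZ. Their medians were -0.20 and -0.19, and Cyp4f14 fell by 0.88 ± 0.11 and 0.85 ± 0.11. Over all genes tested, 27.4% rose and 26.7% fell in WT, and 29.3% rose and 26.4% fell in HZ. Of 12 PPARα targets, 11 rose in WT and 12 in HZ.

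Genes of several other lists were called in the same comparisons, and their part in the P450 result was not tested. Over all genes tested, 27.4% rose and 26.7% fell in WT, and 29.3% rose and 26.4% fell in HZ. Of 6 hepatocyte markers 0 rose and 2 fell in WT, and 3 fell in HZ, with summed levels of 73210 to 98190 CPM in WT vehicle, 64920 to 73390 in WT WY, 64440 to 100700 in HZ vehicle and 42000 to 77920 in HZ WY. Of 9 periportal markers 7 fell in each genotype, and of 11 pericentral markers 3 rose and 4 fell in WT and 2 rose and 6 fell in HZ. Of 17 acute phase genes 9 fell in WT and 6 in HZ. Of 10 Kupffer cell markers 0 rose, and 1 fell in WT and 0 in HZ, with sums of 372 to 502 CPM in WT vehicle, 286 to 450 in WT WY, 370 to 780 in HZ vehicle and 339 to 896 in HZ WY. Of 6 lymphocyte markers 0 passed the filter, and their summed level was at most 3.79 CPM.

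A few markers of other liver cells were called with WY, where 54.1% of all genes tested were called in WT and 55.7% in HZ. Of 4 cholangiocyte markers 0 passed in WT and 2 rose in HZ, Sox9 by 0.70 ± 0.19 and Krt19 by 0.93 ± 0.38. The list sums ran from 22.5 to 100.4 CPM in HZ WY, highest in animal 21, with a median of 33.1. In HZ vehicle they ran from 26.8 to 73.1 CPM, highest in animal 38, with a median of 31.3. Of 5 stellate cell and fibroblast markers 0 passed in WT, and in HZ the collagen gene Col1a1 rose by 1.46 ± 0.45 and Dcn fell by 0.24 ± 0.094. The sum of this list in HZ WY was also highest in animal 21, at 335.6 CPM against a median of 246.1. The marker calls were not examined without the 5 HZ libraries that stood apart. Of 7 sinusoid endothelial markers 2 fell in WT, Kdr by 0.22 ± 0.07 and Cdh5 by 0.27 ± 0.097, and 0 passed in HZ. Of 4 neutrophil and monocyte markers 0 passed in either genotype, with sums of at most 20.4 CPM, in HZ WY animal 21. Their part in the P450 result was not tested.

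Of 13 clock output genes 4 fell in WT, and 1 rose and 8 fell in HZ. The mean log2 CPM of Dbp, Tef and Hlf had medians of 6.08 (WT) and 6.36 (HZ) with vehicle and of 6.16 (WT) and 5.32 (HZ) with WY. With that mean as a covariate, 23 members fell with WY in WT and 24 in HZ. In HZ the mean ran from 5.66 to 6.48 with vehicle and from 4.27 to 5.88 with WY, overlapping only through vehicle animal 71. There the covariate nearly follows the treatment, so this fit cannot separate the 2. Of 6 male-biased liver genes 1 rose and 2 fell in WT and 1 rose and 4 fell in HZ. The P450 genes known to be higher in females (Cyp2b9, Cyp2b13, Cyp2c40, Cyp3a41a and Cyp3a44) had at most 1.42 CPM in any library. Cyp2c69, just below the level for members, reached 1.88 CPM in HZ vehicle animal 39, and the member Cyp2a4, also known as higher in females, reached 27.1 CPM in HZ vehicle animal 38. Of other families, 0 of 6 female-biased genes passed the filter.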

How the data were processed

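Liver RNA of 28 animals was sequenced, 1 library each. The deposited values are whole-number counts per gene symbol, in 1 table for vehicle and 1 for WY animals. Per the submitters' processing notes, the authors used STAR 2.5.0a, HTSeq 0.6.1p1, DESeq2 1.18.1 and build mm10, in an order that the notes do not give. The annotation counted and the strand option were not given in the sources used here. Rows that name no gene were left out, and 35.8 to 42.7% of each library fell in the row for reads not placed uniquely, which lowers counts of close paralogs.

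The tables were joined by symbol. Genes were filtered with edgeR 4.0.16 (filterByExpr), scaled by TMM and fitted over all 4 groups with its quasi-likelihood test (limma 3.58.1, R 4.3.3). P-values were Benjamini-Hochberg adjusted over the 12607 genes tested. The scripts were tested on simulated data. Groups came from the labels. Coordinates and transcript windows of 50 bases are from GENCODE M21 (GRCm38), promoters from RefSeq. Given in full are 20 members: those called between genotypes, the 8 largest called rises and falls with WY in each genotype, the most abundant per kilobase of each subfamily, and 6 well known ones. The members and lists were chosen with earlier results of these data known. Alternatives were DESeq2 1.42.0, its size factors, voom with quality weights, no filter, only the groups compared, single libraries left out and a Dbp, Tef and Hlf covariate. Leaving out the 5 HZ libraries that stood apart, and the covariate in the WY comparisons, were added after seeing the data.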

Additional observations from a re-analysis of the deposited data

Results flagged for a closer look

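Among 132 groups of 7 libraries (33 genes in 4 groups), 13 held a lowest or highest animal whose gap to the next was over 0.568 of the group's range. Gap and range were taken on log2 CPM after TMM scaling, with a prior count of 2, while the values below are plain CPM. Chance flags about 1 in 20 groups. HZ vehicle animal 38 was highest for Cyp2d12 with 123.7 CPM (the others 0.356 to 1.32) and for Cyp2a5 with 822.2 CPM (90.8 to 222.8), and lowest for Cyp2j5 with 1013 CPM (1248 to 1403). HZ vehicle animal 30 was highest for Cyp3a13 with 460.4 CPM (197.8 to 245.6) and lowest for Cyp2c44 with 229.3 CPM (346.8 to 422). HZ vehicle animal 39 was highest for Cyp2e1 with 10610 CPM (8430 to 9128).

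WT vehicle animal 32 was lowest for Cyp2e1 with 5124 CPM (7627 to 9430) and for Cyp2d10 with 331.5 CPM (374.5 to 420.8). WT WY animal 11 was highest for Cyp2j6 with 123.1 CPM (87.6 to 93.9). HZ WY animal 2 was lowest for Cyp2d13 with 68.48 CPM (94.5 to 114.3) and for Cyp2b10 with 0 CPM (0.658 to 1.61). HZ WY animal 21 was highest for Cyp2d12 with 3.278 CPM (0.159 to 0.449), and HZ WY animal 18 for Cyp2a22 with 18.44 CPM (4.08 to 7.99).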

How the results depend on the processing

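No paired analysis was possible because the groups share no animal numbers. The number of members called with WY lay between 22 and 25 in WT and in HZ under the alternatives that left out no single library, against 24 in each. Between genotypes under vehicle, 1 member (Cyp2d12) became 0 with no filter, with DESeq2, with voom, with only the groups compared, without vehicle animals 71 to 78, with the Dbp, Tef and Hlf covariate, and without the 5 HZ libraries apart (the last chosen after seeing the data), and 0 to 1 when single libraries were left out. The log2 fold change of Cyp2d12 between genotypes under vehicle was -0.090 without the 5 HZ libraries and -0.23 to 4.54 without single libraries. The Cyp2u1 value with WY in WT, 0.0017, was -0.013 with voom, -0.0065 with only the groups compared, -0.025 without vehicle animals 71 to 78, and -0.19 to 0.087 without single libraries. The cause was not tested. Counts near 1 CPM limit Cyp2b10, Cyp2a22 and Cyp2d12.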
